A study of Mus musculus with 4 samples.

Results

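Apoe and 8 genes that lie close to it on mouse chromosome 7 were examined at the lesion site after spinal cord injury, in mice whose Apoe gene had been exchanged for a human one. The 9 genes were taken by name, as the table lists them: APOE, the apolipoprotein genes APOC1 and APOC2, and TOMM40, NECTIN2, BCAM, CLPTM1, RELB and BCL3. They are 9 of the 14717 genes listed at 7 dpi, at 21 dpi or at both. At 7 dpi, 8 of the 9 were among the 14123 listed genes, and at 21 dpi, 4 of the 9 were among the 11470 listed genes.

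RNA was sequenced from a cord segment of about 4 mm holding the lesion, in male targeted replacement (TR) mice injured at an age of 3 to 5 months. ApoE3 mice carried the coding region of human ApoE3 in place of the mouse gene, and ApoE4 mice carried that of human ApoE4. All 4 groups (ApoE3 and ApoE4, each at 7 and at 21 dpi) had received the same 50 kdyne contusion at thoracic vertebra 9, and the background strain is not given in the sources used here. RNA came from 3 mice per genotype and time point, but 1 value per gene and group was at hand, so none of the differences has a replicate check and no test was run.

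Levels are FPKM, fragment numbers scaled for transcript length and sequencing depth. A ratio is log2((FPKM ApoE3 + 1)/(FPKM ApoE4 + 1)), which is positive where ApoE3 was higher and understates differences between low levels. A gene is called past the fold where FPKM + 1 differed at least 1.3-fold. The table can be read in 2 ways as to which of its value columns is which genotype. The reading that follows the name of the comparison, which is also the study's own, was used. Under the other one each direction given between ApoE3 and ApoE4 turns around, and each value or share given for 1 genotype belongs to the other. Reads were aligned to the mouse genome, so the value of APOE covers reads that aligned to mouse Apoe, and how much of the human transcript it captures was not tested.

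Apolipoprotein E carries cholesterol and other lipids between cells of the central nervous system, where astrocytes make most of it and microglia and macrophages make more of it when they clear myelin debris. The genes of apolipoproteins C1, C2 and C4 lie beside that of apolipoprotein E and share distant enhancers with it in liver and in macrophages. In TR mice the human coding sequence sits at the mouse locus under mouse regulatory sequence, so the neighbouring genes are those of the mouse.

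In the gene order of RefSeq (assembly GRCm38.p6), RELB, CLPTM1, APOC2 and APOC1 come before APOE, and TOMM40, NECTIN2, BCAM and BCL3 come after it. Apoc4 lies between APOC2 and APOC1. Of the 9 genes, RELB, APOC1 and BCAM were listed at both time points, and APOE was listed only at 21 dpi. The other 5, CLPTM1, APOC2, TOMM40, NECTIN2 and BCL3, were listed only at 7 dpi. A gene missing from the list has no value here, and this is not a level of 0. Of all genes listed at 7 dpi, 77.0% were also listed at 21 dpi, and of those listed at 21 dpi, 94.8% were also listed at 7 dpi.

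**Figure D1:**
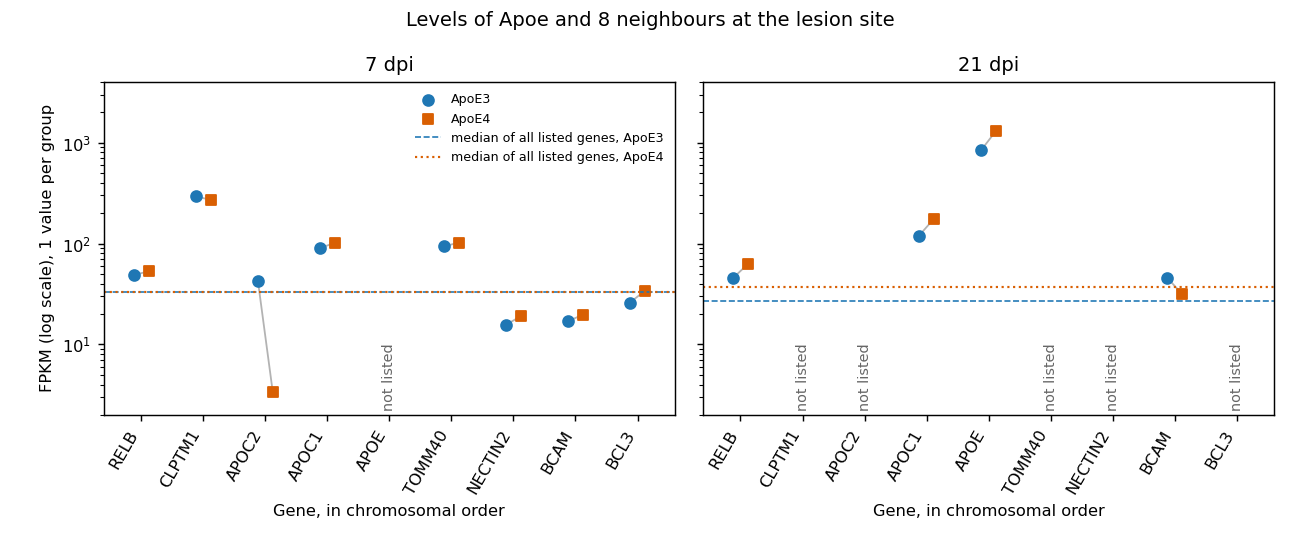
Level of each of the 9 genes in FPKM (log axis) at 7 dpi (left) and 21 dpi (right), in chromosomal order, with 1 deposited value for ApoE3 (circles) and 1 for ApoE4 (squares). Horizontal lines are the medians of all listed genes in each genotype. At 7 dpi the points of APOC2 stand far apart (43.01 against 3.40 FPKM). Of the 4 genes listed at 21 dpi, only BCAM is higher in ApoE3.

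At 7 dpi the largest difference among the 8 listed genes was that of APOC2. Past the fold, 1 of the 8 listed genes (APOC2) was higher in ApoE3, a direction in which 3.78% of all listed genes passed. BCL3 was the 1 gene past the fold in the other direction, in which 4.76% of all listed genes passed. The other 6 were within the fold. The median ratio of the 8 was -0.15, beside 0.0020 over all listed genes, and 6 of the 8 were higher in ApoE4.

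At 21 dpi nearly the whole table lay lower in ApoE3, and the 9 genes have to be read against that. Of all genes listed then, 93.8% were lower in ApoE3, against 49.5% of those listed at 7 dpi. Among genes that averaged 1 FPKM or more, the median ratio was -0.42 at the later time and 0.0018 at the earlier one. As deposited, APOE, APOC1 and RELB were past the fold toward ApoE4, a direction in which 58.9% of all listed genes passed. BCAM was past it toward ApoE3, in which 2.01% passed. After the median of -0.42 was subtracted from every ratio, none of the 4 was past the fold toward ApoE4, where 8.06% of all genes were. BCAM alone was past it toward ApoE3, where 7.46% of all genes were. The median ratio of the 4 was -0.50 as deposited, beside -0.42 over all listed genes. Values relative to the median are therefore given for each of the 4 genes at 21 dpi.

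**Figure D2:**
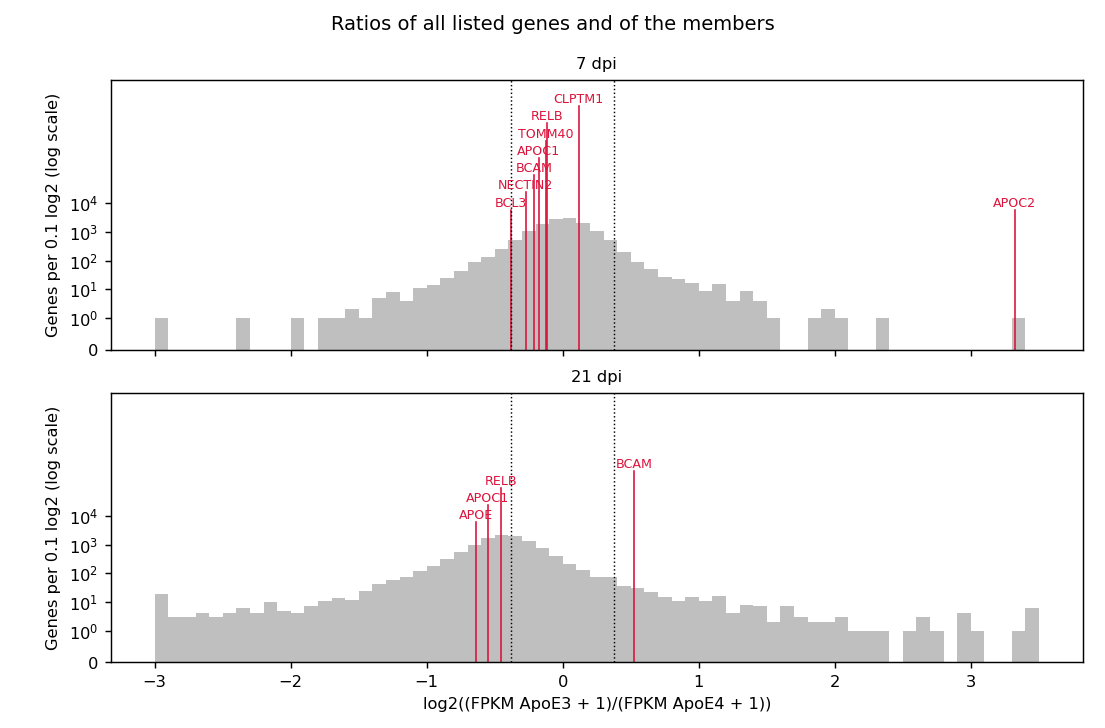
Number of listed genes per 0.1 log2 of the ratio of ApoE3 to ApoE4 (log axis) at 7 dpi (top) and 21 dpi (bottom), with lines at the ratios of the 9 genes where listed and dotted lines at a fold of 1.3. The heights of the labelled lines carry no value, and the outermost bars also hold genes beyond the axis. With 1 added to each FPKM, APOC2 has the highest ratio of all genes at 7 dpi (3.32). APOE, APOC1 and RELB lie in the bulk of the shifted distribution at 21 dpi.

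APOC2 encodes apolipoprotein C2, the activator that lipoprotein lipase needs to release fatty acids from triglyceride-rich lipoproteins. Its level at 7 dpi was 43.01 FPKM in ApoE3 and 3.40 FPKM in ApoE4. This is 12.7-fold higher in ApoE3, a ratio of 3.32. With 1 added to each FPKM, this was the highest ratio of all 14123 genes listed then, and the next highest was 2.33. Under the other reading of the columns it is the lowest. The gene with the next highest ratio had 4.02 FPKM in ApoE3 and 0 in ApoE4. Adding 0.1 or 0.01 in place of 1 would put that gene above APOC2. By distance from the median in either direction APOC2 ranked 2, so that 1 gene lay further out, toward ApoE4. In ApoE3 the gene ranked 6093 of 14123 by level, and in ApoE4 it ranked 12835. APOC2 thus lay near the middle of all levels in ApoE3 and among the low ones in ApoE4. It was not listed at 21 dpi. In RefSeq, APOC2 overlaps the read-through gene Gm44805, which joins it to Apoc4 and was not listed at either time point, and how reads were divided among these genes was not tested.

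The gene next to it differed little at 7 dpi. Apoc4, which encodes apolipoprotein C4, had 5.11 FPKM in ApoE3 and 4.39 FPKM in ApoE4. The level of APOC2 was 8.41 times that of Apoc4 in ApoE3 and 0.773 times in ApoE4. The difference of APOC2 was therefore not shared by its nearest listed neighbour. The short stretch that lies between the end of Apoc4 and the start of APOC2 is shown because it separates a gene that differed from one that did not. It is from RefSeq (GRCm38.p6, chr7:19677942-19678083, minus strand, 142 bases), and it was searched on both strands for 3 motifs common in promoters, which would be in capitals: TATAAA (the TATA box), CCAAT (the box bound by NF-Y) and GGGCGG (a GC box bound by Sp1).
Apoc2: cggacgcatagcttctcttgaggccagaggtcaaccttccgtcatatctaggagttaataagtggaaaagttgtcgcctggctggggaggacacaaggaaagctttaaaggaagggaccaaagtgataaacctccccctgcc
None of the 3 motifs is in it. Of 32851 RefSeq stretches of the same length before gene starts, 7.30% hold TATAAA, 23.6% hold CCAAT and 28.2% hold GGGCGG, and a match or its absence is a description only.

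APOC1 encodes apolipoprotein C1, a small protein of lipoproteins that astrocytes and macrophages express together with APOE. At 7 dpi its level was 89.9 FPKM in ApoE3 and 102 FPKM in ApoE4. The ratio was -0.18, within the fold, so that APOC1 did not share the difference of APOC2 either. The level of APOC1 was 2.09 times that of APOC2 in ApoE3 and 29.97 times in ApoE4. At 21 dpi APOC1 had 120.1 FPKM in ApoE3 and 176 FPKM in ApoE4. The ratio was -0.55 as deposited and -0.13 relative to the median of all genes, close to what the table as a whole showed.

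APOE, the replaced gene, was listed at 21 dpi with 843 FPKM in ApoE3 and 1311 FPKM in ApoE4. It was the most abundant of the 4 genes listed then, at rank 252 of 11470 in ApoE3 and at rank 191 in ApoE4. The level in ApoE4 was 1.55-fold higher, a ratio of -0.64 as deposited. Relative to the median of all genes the ratio was -0.21, within the fold. APOE was 7.02 times the level of APOC1 in ApoE3 and 7.43 times in ApoE4, so the proportion of these adjacent genes was nearly equal in both genotypes. APOE, APOC1 and Apoc4 lie in a row and were all higher in ApoE4 at 21 dpi as deposited. So were 93.8% of all listed genes, and relative to the median only Apoc4 of the 3 was past the fold. The bases before the outermost of the 3 starts that RefSeq gives for mouse Apoe follow (GRCm38.p6, chr7:19699189-19699438, minus strand, 250 bases, motifs as above).
Apoe: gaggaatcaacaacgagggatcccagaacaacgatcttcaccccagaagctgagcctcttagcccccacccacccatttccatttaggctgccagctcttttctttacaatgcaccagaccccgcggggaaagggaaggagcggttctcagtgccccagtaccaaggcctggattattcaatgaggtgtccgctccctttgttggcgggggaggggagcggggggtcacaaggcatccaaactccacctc
This stretch also holds none of the 3 motifs. Of the 300-base windows at the other starts of Apoe, 1 (chr7:19698572-19698871) holds TATAAA 2 times, in overlapping matches on both strands, and the other holds none of the 3. Of all upstream stretches of 250 bases, 12.4% hold TATAAA, 33.8% hold CCAAT and 32.7% hold GGGCGG. Windows were at hand for 7 of the 9 genes.

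Apoc4 differed more than APOC1 and APOE at 21 dpi. It had 4.58 FPKM in ApoE3 and 9.83 FPKM in ApoE4, a ratio of -0.96 and of -0.53 relative to the median. APOE was 184 times the level of Apoc4 in ApoE3 and 133 times in ApoE4. The proportion of Apoc4 to APOE was thus not equal in both genotypes, at a level of Apoc4 that was low in each.

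Genes that act with these apolipoproteins were looked at as lists. Liver X receptors drive APOE and APOC1 in macrophages. Of 13 genes that are such receptors, their targets or lipid efflux genes, 10 were listed at 7 dpi and none was past the fold. At 21 dpi 8 were listed, and relative to the median Lpl and Lpcat3 were past it toward ApoE4, as were 8.06% of all genes, the latter with 28.2 FPKM in ApoE3 and 50.9 FPKM in ApoE4. Of 11 partners of lipoprotein lipase, the enzyme that APOC2 activates, 5 were listed at 7 dpi. Apart from APOC2, only the inhibitor Angptl4 was past the fold, toward ApoE4 as were 4.76% of all listed genes, with 14.4 FPKM in ApoE3 and 20.7 FPKM in ApoE4. The lipase gene Lpl itself had 71.1 FPKM in ApoE3 and 90.7 FPKM in ApoE4 at 7 dpi, a ratio of -0.35, and 11.8 and 23.1 FPKM at 21 dpi, a ratio of -0.49 relative to the median. The activator and the lipase therefore differed in opposite directions at 7 dpi, the lipase within the fold. At 21 dpi 3 partners were listed, and Lpl and Apoc3 were past the fold toward ApoE4 relative to the median, as were 8.06% of all genes.

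Of 18 other apolipoprotein genes, 7 were listed at 7 dpi. Apol9a, with 5.62 FPKM in ApoE3 and 3.20 FPKM in ApoE4, and Apol9b, with 3.11 and 1.67, were past the fold toward ApoE3, as were 3.78% of all listed genes. These are near copies of each other, between which reads could be split, so their values are uncertain. At 21 dpi 11 were listed and, relative to the median, 5 were past the fold toward ApoE4, as were 8.06% of all genes: Apoa2, Apoc3, Apoa1, Apoh and Apoc4. Apoa1, Apoa2 and Apoc3 also count among 16 liver markers, and 10 of the 16 were listed at 21 dpi. All 10 were past the fold toward ApoE4 both as deposited and relative to the median, as were 58.9% and 8.06% of all genes, with a summed level of 11.9 FPKM in ApoE3 and 145 FPKM in ApoE4, and Apoa2 was the most abundant (5.38 and 59.2 FPKM). The liver makes APOE, APOC1 and Apoc4 as well, and the part of such RNA in their values at 21 dpi was not tested. APOE differed 1.55-fold between genotypes, against 12.2-fold for the summed liver genes. At 7 dpi 2 of the 16 liver genes were listed, Hp and Trf, neither past the fold, with a sum of 1680.04 FPKM in ApoE3 and 1653 FPKM in ApoE4 that was nearly all Trf, a gene of oligodendrocytes too.

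Astrocytes, microglia and macrophages are the main sources of APOE in the injured cord, and their markers were set beside it. Of 10 astrocyte markers, all were listed at 21 dpi and 9 were below the median of all ratios. Gfap and Aqp4 were past the fold toward ApoE4 relative to it, as were 8.06% of all genes. The sum, as deposited like those that follow, was 14367 FPKM in ApoE3 and 24877 FPKM in ApoE4. The most abundant, Gfap, had 8201 FPKM in ApoE3 and 15313 FPKM in ApoE4. Of 15 macrophage markers, 9 were listed at 21 dpi, 7 of them below the median and 4 past the fold (Ms4a7, Adgre1, Lyz2 and Spp1), with a sum of 1622 FPKM in ApoE3 and 2936 FPKM in ApoE4, led by Spp1 (918 and 1809 FPKM). Of 10 microglia markers, 6 were listed and all were below it, Fcrls and Siglech past the fold, with a sum of 283 and 509 FPKM, led by Siglech (123 and 237 FPKM). Below the median lay also all 9 listed oligodendrocyte markers, 6 of 8 neuron markers and all listed liver and muscle markers, so that this was not particular to the former lists. APOE lay below the median too, and the part of these cells in its value was not tested. In bulk tissue, fewer cells of a type and less RNA per cell cannot be told apart.

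TOMM40 encodes the channel of the outer mitochondrial membrane through which most mitochondrial proteins enter, and it is the next gene after APOE. At 7 dpi it had 93.7 FPKM in ApoE3 and 102 FPKM in ApoE4. The ratio was -0.12, so the gene adjoining the replaced one showed no difference past the fold. It was not listed at 21 dpi. Its upstream stretch is printed because it holds the most matches among the windows at hand for 7 of the 9 genes, with CCAAT and GGGCGG in capitals as found on either strand (RefSeq, GRCm38.p6, chr7:19715430-19715679, minus strand, 250 bases).
Tomm40: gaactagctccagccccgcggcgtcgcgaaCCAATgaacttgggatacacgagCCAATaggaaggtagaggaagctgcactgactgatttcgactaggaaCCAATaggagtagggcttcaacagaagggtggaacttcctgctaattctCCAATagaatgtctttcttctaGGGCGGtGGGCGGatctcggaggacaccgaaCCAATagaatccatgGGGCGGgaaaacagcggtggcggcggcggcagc
CCAAT was found 5 times and GGGCGG 3 times, and the motifs do not overlap. Of all upstream stretches of this length, 0.213% hold CCAAT at least 5 times and 8.47% hold GGGCGG at least 3 times.

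All 16 genes of a list of mitochondrial import machinery that includes TOMM40 were listed at 7 dpi, with a median ratio of -0.039. Only Timm17b was past the fold, toward ApoE4 as were 4.76% of all listed genes, with 32.7 FPKM in ApoE3 and 47.4 FPKM in ApoE4. At 21 dpi 14 were listed, and relative to the median only Timm22 was past it, toward ApoE3 as were 7.46% of all genes, with 91.0 FPKM in ApoE3 and 87.6 FPKM in ApoE4. TOMM40 at 7 dpi was within the fold, as were most import genes and most genes of the table.

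CLPTM1 encodes a membrane protein that holds GABA-A receptor subunits inside the cell. It was the most abundant of the 8 genes listed at 7 dpi, with 294 FPKM in ApoE3 and 271 FPKM in ApoE4, a ratio of 0.12. With APOC2 it was 1 of only 2 genes of the 8 that were higher in ApoE3. It was not listed at 21 dpi. In a list of 10 genes of its family and of these receptor subunits, all were listed at 7 dpi and 9 lay above the median. At 21 dpi 4 were listed, all below the median. Neuron markers ran the same way at 7 dpi, where all 9 listed of 10 were above the median, with a sum of 9861 FPKM in ApoE3 and 7711 FPKM in ApoE4, led by Map2 (4119 and 3184 FPKM). At 21 dpi 8 were listed and 6 were below it, with a sum of 11034 and 17127 FPKM, led by Snap25 (5336 and 7812 FPKM). Their part in the value of CLPTM1 was not tested.

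NECTIN2 and BCAM encode cell surface proteins of the immunoglobulin superfamily. Nectin-2 joins neighbouring cells and is a ligand of receptors on lymphocytes, and BCAM, the Lutheran antigen, binds laminin alpha 5 in basement membranes. NECTIN2 had 15.6 FPKM in ApoE3 and 19.1 FPKM in ApoE4 at 7 dpi, a ratio of -0.27 within the fold, and was not listed at 21 dpi. Of 13 nectins and their partners, 10 were listed at 7 dpi and 6 at 21 dpi, and none was past the fold at 7 dpi or, relative to the median, at 21 dpi.

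BCAM was the 1 gene of the 4 listed at 21 dpi that was higher in ApoE3 then. At 7 dpi it had 16.9 FPKM in ApoE3 and 19.8 FPKM in ApoE4, a ratio of -0.21. At 21 dpi it had 45.8 FPKM in ApoE3 and 31.4 FPKM in ApoE4, a ratio of 0.53 as deposited and of 0.95 relative to the median. BCAM thus was slightly higher in ApoE4 at the earlier time and higher in ApoE3 at the later one. From the highest down, its ratio at 21 dpi ranked 172 of 11470, and under the other reading of the columns it ranks 172 from the lowest. By distance from the median in either direction, which is the same under both readings, BCAM ranked 311. Its deposited level was 1.46-fold higher in ApoE3. As deposited it would not pass a fold of 1.5. The stretch before its start is printed as that of the 1 gene of the 4 past the fold at 21 dpi relative to the median (RefSeq, GRCm38.p6, chr7:19770533-19770782, minus strand, 250 bases, the same 3 motifs).
Bcam: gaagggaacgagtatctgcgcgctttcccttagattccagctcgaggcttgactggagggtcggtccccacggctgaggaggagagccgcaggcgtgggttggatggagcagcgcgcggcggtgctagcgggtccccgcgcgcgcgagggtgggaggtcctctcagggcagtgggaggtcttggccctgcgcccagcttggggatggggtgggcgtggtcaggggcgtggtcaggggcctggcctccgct
None of the 3 motifs is in these bases, while the full window, which runs on past the start, holds GGGCGG once. G and C make up 70.0% of the printed bases, beside 53.2% over all upstream stretches of 250 bases.

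Of the laminins, 6 genes were looked at. All 6 were listed at both times. At 7 dpi all 6 were below the median and none was past the fold. At 21 dpi, as deposited, 1 was past the fold toward ApoE3, as were 2.01% of all genes, and Lama5 and Lama4 toward ApoE4, as were 58.9%, with a sum of 124 FPKM in ApoE3 and 139 FPKM in ApoE4. Relative to the median, 5 of the 6 were above it and 4 were past the fold toward ApoE3, as were 7.46% of all genes. Lamb1 had 8.45 FPKM in ApoE3 and 3.33 FPKM in ApoE4. Lama2 (20.7 and 18.9 FPKM), Lamc1 (15.0 and 14.8 FPKM) and Lamb2 (38.9 and 39.0 FPKM) were close to equal as deposited and high only against the shifted median. Lama5, the gene of the ligand itself, was the 1 below the median, with 39.0 FPKM in ApoE3 and 60.3 FPKM in ApoE4, a ratio of -0.19 relative to it. BCAM and Lama5 therefore lay on opposite sides of the median at 21 dpi. At 7 dpi both were higher in ApoE4, Lama5 with a ratio of -0.28.

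Markers of peripheral nerve and ganglion differed in the same direction as BCAM at 21 dpi. Of 10 Schwann cell markers, 9 were listed, all above the median and 7 past the fold toward ApoE3, as were 7.46% of all genes relative to the median. Their sum was 3162 FPKM in ApoE3 and 1201 FPKM in ApoE4, led by Pmp22 (1969.95 and 992 FPKM). Of 10 sensory ganglion markers, 9 were listed, all above the median and 8 past the fold toward ApoE3, with a median ratio of 2.32 as deposited. Scn10a had 20.1 FPKM in ApoE3 and 0.153 FPKM in ApoE4. The sum of the 9, 793 and 833 FPKM, was carried by Calca (702 and 829.5 FPKM), and Trpv1 and Mrgprd were at 0 in ApoE4. At 7 dpi, when BCAM was slightly higher in ApoE4, the 7 listed Schwann cell markers summed to 837 FPKM in ApoE3 and 840.4 FPKM in ApoE4. The 3 listed ganglion markers then summed to 484 and 364 FPKM. The part of such cells in the value of BCAM was not tested.

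Markers of other tissues were set beside the 9 genes as well. Of 14 skeletal muscle markers, 9 were listed at 21 dpi, all past the fold toward ApoE4 both as deposited and relative to the median, as were 58.9% and 8.06% of all genes, with a sum of 35.1 FPKM in ApoE3 and 737 FPKM in ApoE4, led by Tnnt3 (22.5 and 515 FPKM). Myh4 was at 0 in ApoE3. At 7 dpi 9 were listed, 3 past the fold toward ApoE3 and 1 toward ApoE4, as were 3.78% and 4.76% of all listed genes, with a sum of 169 FPKM in ApoE3 and 134 FPKM in ApoE4, led by Pvalb, which neurons also express (98.3 and 86.4 FPKM). Ckm, the muscle creatine kinase gene 16 places before APOE, was listed at neither time. Erythrocyte markers summed to 492 FPKM in ApoE3 and 489 FPKM in ApoE4 for 5 listed genes at 7 dpi, led by Hbb-bs (146 and 142 FPKM). At 21 dpi 4 were listed, with 1063 and 1335 FPKM, led by Hba-a1 (458 and 589.7 FPKM), and none was past the fold. Oligodendrocyte markers, which a cord segment should hold, were led by Mbp at 120571 FPKM in ApoE3 and 127575 FPKM in ApoE4 at 7 dpi and at 201348 and 278678 FPKM at 21 dpi. Their sums were 127350 and 134476 FPKM for 7 of 10 genes at 7 dpi, and 228368 and 321874 FPKM for 9 of 10 at 21 dpi, and none was past the fold relative to the median.

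**Figure D3:**
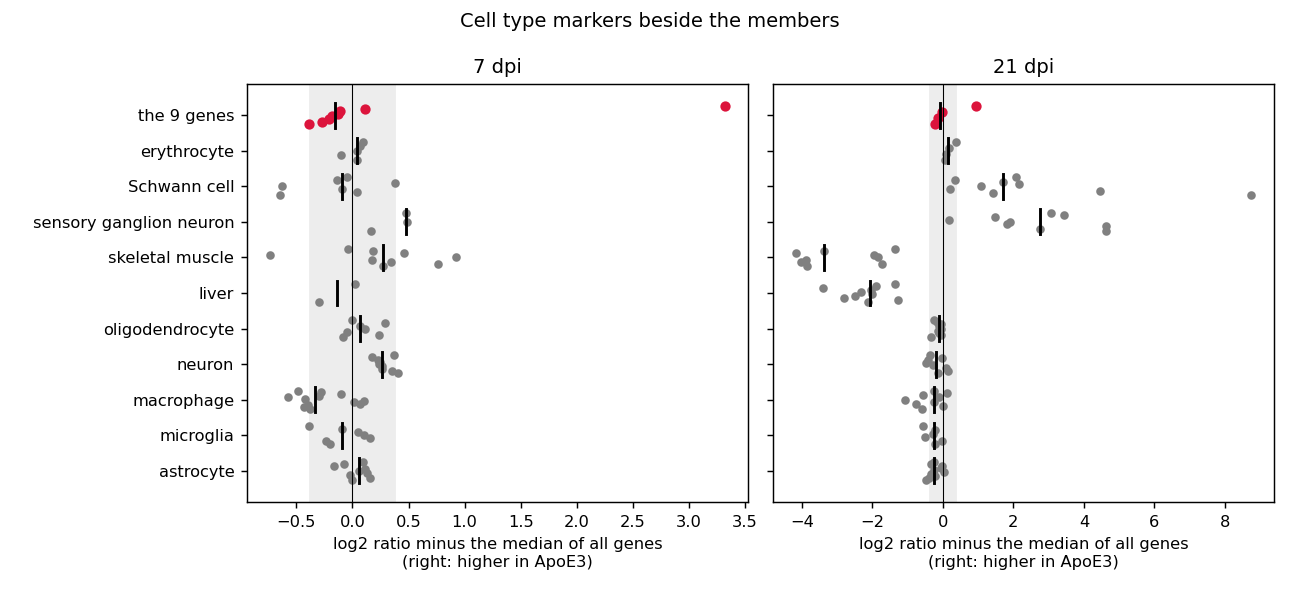
Log2 ratio of ApoE3 to ApoE4 relative to the median ratio of the table, for each listed marker gene of 10 cell types (grey) and for the 9 genes where listed (red), at 7 dpi (left) and 21 dpi (right). Black bars are list medians, the shaded band is within a fold of 1.3, and the horizontal axes of the panels differ in range. At 21 dpi the liver and muscle markers lie far to the left and the Schwann cell and ganglion markers to the right, while the members other than BCAM lie in the band.

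RELB and BCL3, which flank the group, both belong to the NF-kappaB system. RELB is the subunit that pairs with p52 in the noncanonical pathway, and BCL3 is a nuclear protein that binds p50 and p52 dimers. RELB had 48.9 FPKM in ApoE3 and 52.9 FPKM in ApoE4 at 7 dpi, a ratio of -0.11. At 21 dpi it had 45.5 FPKM in ApoE3 and 62.7 FPKM in ApoE4, a ratio of -0.46 as deposited and of -0.03 relative to the median. RELB thus followed the table as a whole at both times.

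BCL3 had 26.0 FPKM in ApoE3 and 34.2 FPKM in ApoE4 at 7 dpi. Its ratio of -0.38 lies just beyond the fold of 1.3, and BCL3 would not pass a fold of 1.5. It was not listed at 21 dpi. All 21 genes of a list of NF-kappaB subunits and regulators, BCL3 and RELB among them, were listed at 7 dpi, and 18 were below the median of all ratios. The median of the list was -0.16, beside 0.0020 over all listed genes. BCL3 and 2 others of the 21 were past the fold toward ApoE4, as were 4.76% of all listed genes: Tnfaip3, with 13.1 FPKM in ApoE3 and 19.1 FPKM in ApoE4, and Nfkbiz, with 13.4 and 17.9 FPKM. At 21 dpi 18 were listed, and as deposited 7 were past the fold toward ApoE4, as were 58.9% of all genes. Relative to the median, 13 of the 18 were above it and only Nfkbie was past the fold, toward ApoE4 as were 8.06% of all genes, with 3.74 FPKM in ApoE3 and 9.50 FPKM in ApoE4.

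Macrophage markers lay the same way as BCL3 at 7 dpi. Of 15, 12 were listed and 9 were below the median, 5 of them past the fold toward ApoE4, as were 4.76% of all listed genes. Their sum was 9673 FPKM in ApoE3 and 12573 FPKM in ApoE4, led by Lyz2 (4522 and 6076 FPKM). Of 10 microglia markers, 7 were listed, 4 of them below the median. Of 10 astrocyte markers, 9 were listed, with a sum of 17920 and 17474 FPKM led by Gfap (12395 and 12386 FPKM). The part of macrophages in the value of BCL3 was not tested.

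For RELB, APOC1 and BCAM the level at 21 dpi can be set against that at 7 dpi, although the 2 time points may have been normalized in separate runs. In ApoE3, APOC1 and BCAM were higher at 21 dpi by at least 1.3-fold, as were 31.3% of the 10876 genes listed at both times. In ApoE4 the same was true of APOC1 and BCAM, and of 59% of all genes. BCAM stood at 2.70 times its earlier level in ApoE3 and at 1.59 times in ApoE4, or the reverse under the other reading of the columns. APOC1 stood at 1.34 times in ApoE3 and 1.73 times in ApoE4, and RELB at 0.931 and 1.19 times. The median log2 ratio of 21 over 7 dpi over all genes was 0.088 in ApoE3 and 0.53 in ApoE4. With each group scaled to the same upper quartile, BCAM was higher at 21 dpi by 1.26 on the log2 scale in ApoE3 and by 0.12 in ApoE4. The scaled values of APOC1 were 0.29 in ApoE3 and 0.25 in ApoE4, and those of RELB were -0.22 and -0.29. A fold of 1.3 is 0.379 on that scale, so that only BCAM in ApoE3 was then still past it. After scaling, APOC1 and RELB thus had nearly the same course in both genotypes, and BCAM did not.

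**Figure D4:**
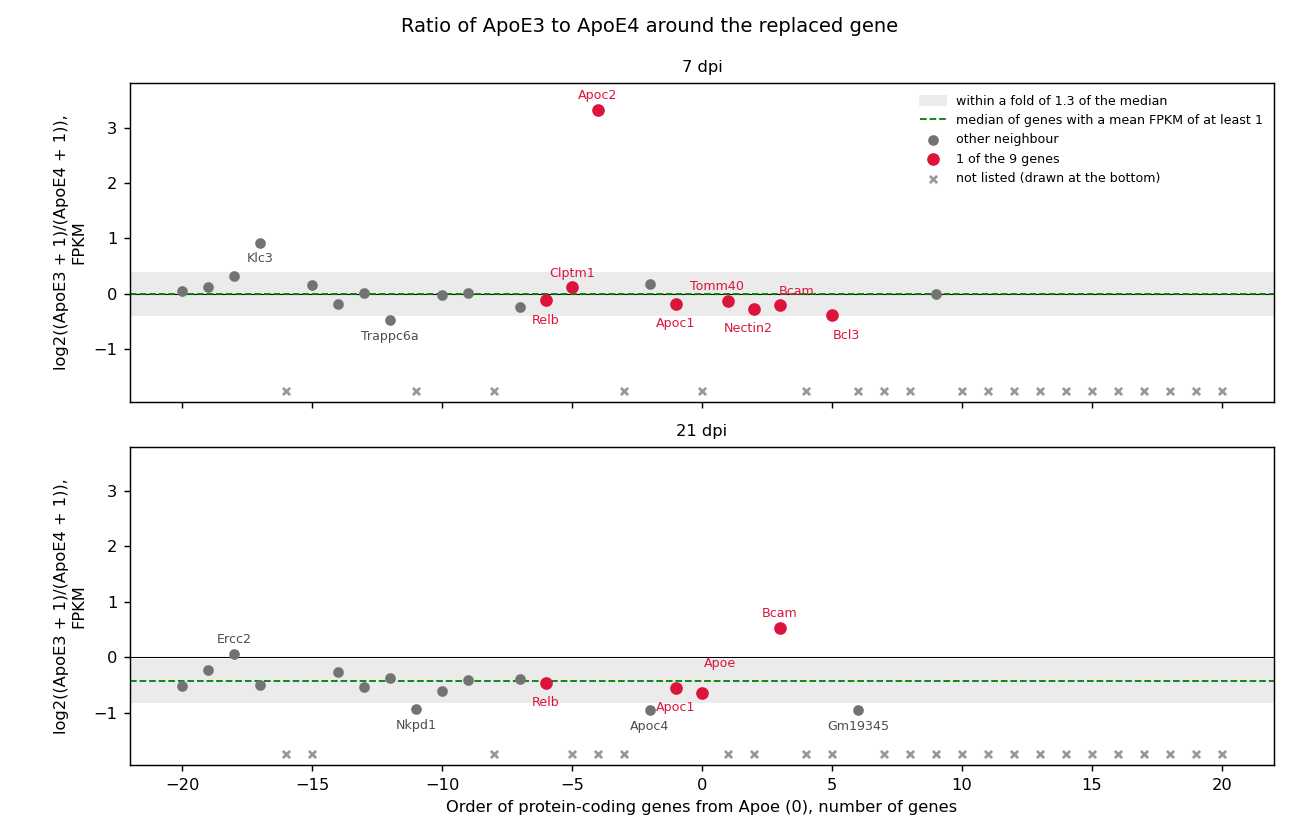
Ratio of ApoE3 to ApoE4 (log2, vertical axis) for APOE and the 20 protein-coding genes on each side, by their order from APOE at 0 (horizontal axis), at 7 dpi (top) and 21 dpi (bottom). Red points are the 9 genes, grey points other neighbours, crosses genes not listed, and the dashed line the median over genes that averaged 1 FPKM or more, with a band of 1.3-fold on each side. APOC2 (3.32) and Klc3 (0.93) lie above the band at 7 dpi, and BCAM (0.53) and Ercc2 (0.05) at 21 dpi.

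The 20 protein-coding genes on each side of APOE in the RefSeq order were then taken as a whole. Of these 40, 21 were listed at 7 dpi and 16 at 21 dpi. On the side of RELB and CLPTM1, 16 of 20 were listed at 7 dpi and 14 at 21 dpi. On the side of TOMM40 and BCL3, 5 and 2 were listed, and 8 of those 20 are vomeronasal receptor genes and 3 are Ceacam genes. The median ratio at 7 dpi was -0.0082, beside 0.0020 over all listed genes. At 21 dpi it was -0.48 as deposited and -0.057 relative to the median of all genes. By side, the median at 7 dpi was 0.03 on the side of RELB and -0.21 over the 5 genes listed on the side of BCL3, a difference that was not tested. At 21 dpi, relative to the median of all genes, it was -0.06 on the side of RELB, and the 2 genes listed on the other side, BCAM and Gm19345, had 0.95 and -0.52. With 10 genes on each side the median was -0.11 at 7 dpi and -0.50 at 21 dpi, or -0.08 relative to the median of all genes. With 40 on each side it was -0.02 at 7 dpi and -0.39 at 21 dpi, or 0.03 relative to that median.

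Of the 21 neighbours listed at 7 dpi, 2 were past the fold toward ApoE3 and 2 toward ApoE4 relative to the median, beside 3.78% and 4.76% of all listed genes as deposited. Of the 16 listed at 21 dpi these were 2 and 3, beside 7.46% and 8.06% of all genes. Other than APOC2, BCL3 and BCAM, those at 7 dpi were Klc3, a kinesin light chain gene 17 places before APOE, with 13.7 FPKM in ApoE3 and 6.73 FPKM in ApoE4, and Trappc6a, a gene of a vesicle tethering complex, with 78.2 and 108 FPKM. At 21 dpi they were the DNA repair gene Ercc2 (30.1 and 28.9 FPKM) toward ApoE3, and Nkpd1 (4.91 and 10.3 FPKM), Apoc4 and Gm19345 (0.388 and 1.67 FPKM) toward ApoE4. None of these lies directly beside APOE. The direct neighbours that were listed, APOC1 at both times and TOMM40 at 7 dpi, were within the fold relative to the median.

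The genes nearest to APOE, APOC1 and APOC2 in pattern were sought by the distance over 3 log2 values: the ratio at 7 dpi, the ratio at 21 dpi and the mean of both genotypes at 21 over 7 dpi. Only APOC1 could be placed, since APOE and APOC2 were each listed at 1 time point. Among 10768 genes listed at both and averaging 1 FPKM or more, the 5 nearest to APOC1 were Set, Clptm1l, Snx3, Hnrnpa0 and Tmem70, at distances from 0.023 to 0.046. APOC1 had the values -0.18, -0.55 and 0.60, and 40 genes lay within 0.1 of it. The course of APOC1 was thus close to that of many other genes.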

How the data were processed

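The authors aligned single-end reads, down-sampled to the same number per library, to the mouse genome and computed FPKM with Cuffdiff. Down-sampling came before alignment, and by the study's methods 1 replicate had a clearly lower share of aligned reads than the others. The methods do not name its group, and its part in the values was not tested. The deposited table holds FPKM plus 1 for each gene, genotype and time point, and 1 was subtracted. The submitters' processing notes name STAR 2.5.4b, Bowtie2 2.1.10, SAMtools 0.1.7 and Cuffdiff 1.3.0. The genome build and annotation are not given in the sources used here. The authors' p-values, q-values, fold changes and calls in that table, and a second table of their differentially expressed genes, were not used. At each time point 2 symbols were on 2 rows and were left out.

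Log2 ratios used a pseudocount of 1. There was no test and no error, and read numbers behind single genes are unknown. The members and the lists were chosen with earlier results of these data known. The genes named in the text were the 9 members, neighbours and list genes past the fold relative to the median (at most 4 a list, those with the largest ratio), the most abundant gene of each marker list and the 5 genes nearest in pattern. Lpl, Lama4, Lama5, Calca, Ckm, Hp, Trf, Trpv1, Mrgprd, Myh4, Scn10a, Cd3eap and Bloc1s3 were named besides, with their values in view. The values of some list genes are left out here. Alternative settings were pseudocounts of 0.1 and 0.01, subtraction of the median, upper quartile scaling, a minimum mean FPKM of 1, folds of 1.5 and 2, genotypes by column number, and 10 or 40 neighbours on each side. Centring on chromosome 7 and leaving Apoa1, Apoa2 and Apoc3 out of the apolipoprotein list were chosen after seeing the data. All 9 members matched RefSeq (GRCm38.p6), which also gave the promoter windows. Scripts ran in Python 3.11.15 (numpy 2.4.6, pandas 2.3.3, matplotlib 3.10.9), and the procedure was tested on simulated data.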

Additional observations from a re-analysis of the deposited data

Results flagged for a closer look

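For 3 genes of the region the direction between genotypes was opposite at 7 and 21 dpi, both as deposited and relative to the median of all genes, with a ratio relative to the median past the fold of 1.3 at 1 time point or both. Cd3eap and Bloc1s3 also had opposite directions, with ratios relative to the median within the fold at both times. BCAM had a ratio of -0.21 at 7 dpi and 0.53 at 21 dpi, a difference of 0.74 as deposited and of 1.16 relative to the medians. Apoc4 (APOC4) had 0.18 and -0.96, a difference of -1.14, or -0.71 relative to the medians. Klc3 (KLC3) had 0.93 and -0.51, a difference of -1.43, or -1.01 relative to the medians. With 1 value per group, the difference between 7 and 21 dpi was not tested for any of the 3.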

How the results depend on the processing

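Numbers of members here count those past the fold. The number of 1 toward ApoE3 at 7 dpi held under every alternative run except that the single gene is BCL3 when genotypes are read by column number. By column number, the ratios were -3.32 for APOC2 and 0.38 for BCL3 at 7 dpi, and 0.46 for RELB, 0.55 for APOC1, 0.64 for APOE and -0.53 for BCAM at 21 dpi, so that 3 members were then higher in ApoE3 and 1 in ApoE4 at 21 dpi. At 7 dpi the number higher in ApoE4 was 0 at a fold of 1.5 and 0 at a fold of 2. At 21 dpi the number higher in ApoE3 was 0 at a fold of 1.5 and 0 at a fold of 2. The number higher in ApoE4 at 21 dpi, 3 as deposited, was 1 at a fold of 1.5 and 0 at a fold of 2. It was also 0 after subtraction of the median, after upper quartile scaling and after subtraction of the chromosome 7 median of -0.39 (added after seeing the data), since these remove a shift that nearly all genes shared. Subtraction of the median put the 40 neighbours at -0.057 at 21 dpi. Pseudocounts of 0.1 and 0.01 moved no member count by over 1.5 times and no member ratio by a fold of 1.3 or more, and a minimum mean FPKM of 1 moved no member count. The top rank of APOC2 at 7 dpi would not hold with these 2 pseudocounts, since the gene with the next highest ratio was at 0 in ApoE4. With 10 or 40 neighbours on each side, the medians of the neighbours moved by less than a fold of 1.3, but at 21 dpi the median relative to all genes turned from -0.057 to 0.030 with 40. The depth behind single genes is unknown, which limits low values such as APOC2 in ApoE4 and Apoc4. No paired analysis was possible because each group has 1 value.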
